A study of Mus musculus with 9 samples.

Results

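The 10 genes described here govern the G1 phase of the cell cycle and were examined in 4T1 primary tumors. They are the D-type cyclins Ccnd1, Ccnd2 and Ccnd3, the E-type cyclin Ccne1, the cyclin-dependent kinases (CDKs) Cdk2, Cdk4 and Cdk6, the inhibitors Cdkn1a (p21) and Cdkn1b (p27), and Rb1. They were chosen by name with earlier results of these data known, as were the gene lists below. Their shares called, set beside those of all genes, are therefore descriptions only. Found by Entrez identifier, they were 10 of 18755 genes in the count table. All 10 were among the 13966 genes that passed the filter on low counts and were tested. The tumors grew in female BALB/c mice, 6 to 10 weeks old, after injection of 1000000 cells of the mouse mammary carcinoma line 4T1 into a mammary fat pad. From day 15 and for 5 days, the mice of 3 tumors received the vehicle, 0.5% Natrosol, and those of 6 tumors received BI 853520 (BI below), an inhibitor of focal adhesion kinase (FAK), at 50 mg/kg. One messenger RNA library was made from each whole tumor piece, so both groups share the cell line, the host strain and the vehicle. The labels do not state that each tumor came from a separate mouse, and p-values measure the spread between these samples.

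D-type cyclins are made in response to growth factors and adhesion, bind CDK4 or CDK6, and start the phosphorylation of the retinoblastoma protein RB. RB in its active form holds E2F transcription factors in check, and its phosphorylation, completed by cyclin E with CDK2, releases them and lets genes of DNA replication be transcribed. The CIP/KIP proteins p21 and p27 inhibit CDK2 complexes and also help to assemble cyclin D with CDK4 or CDK6. Cyclin D1 is an oncogene in breast carcinoma, and CDK4 and CDK6 are drug targets there, while cyclins D2 and D3 are prominent in blood cells.

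Of the 10 genes, 4 fell and 2 rose after BI when p-values of the edgeR quasi-likelihood fit were adjusted over all genes (Benjamini-Hochberg, threshold 0.05), against 14.1% of all genes tested that fell and 14.6% that rose. Ccnd1, Cdk4, Cdk6 and Cdkn1b fell, Ccnd2 and Ccnd3 rose, and Ccne1, Cdk2, Cdkn1a and Rb1 did not pass. The D-type cyclins therefore did not change in 1 direction, and the kinases that partner them had lower levels while Cdk2 had a log2 fold change of -0.07. In 4 genes (Ccnd1, Cdk4, Cdk6, Cdkn1b) all 6 BI-treated tumors lay below all 3 vehicle-treated tumors, and in 2 (Ccnd3, Rb1) all lay above, where 14.0% and 14.1% of all genes tested did so. All 10 changes were under 1.5-fold in size, so none met the cutoffs of the study, which 13.2% of all genes tested met. These were an unadjusted p of at most 0.05 together with a limit on fold change of that size. The paper used them to choose genes for its functional analysis. Apart from them, its gene set enrichment analysis named Cdk4 among cell cycle genes with reduced expression. The median log2 fold change was -0.02 over the 10 genes and -0.00 over all genes tested.

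**Figure D1:**
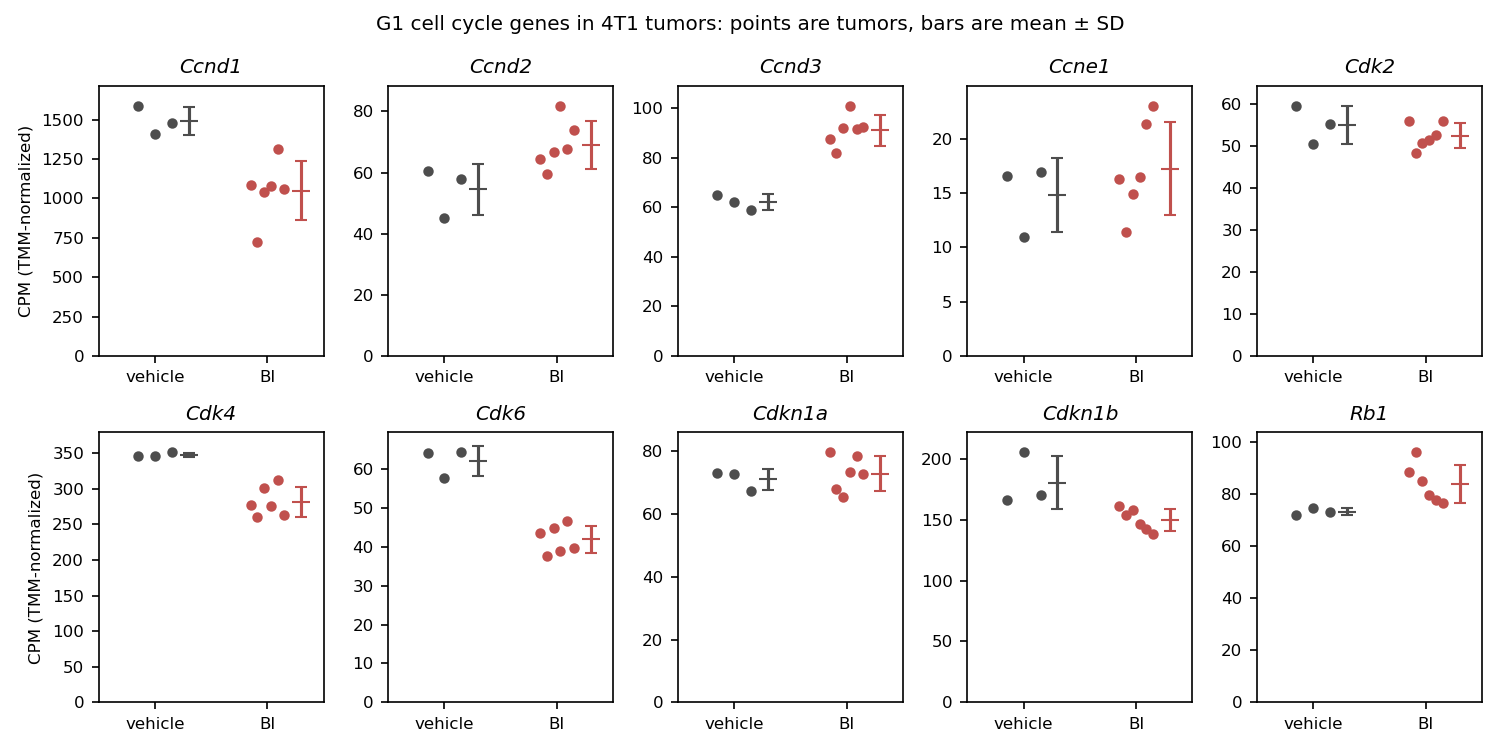
Expression of the 10 genes in each tumor, as TMM-normalized counts per 1000000 counts on genes (CPM, y axis from 0), for 3 vehicle-treated (grey) and 6 BI-treated tumors (red); points are tumors and the bars beside them show the mean ± SD. The groups do not overlap for Ccnd1, Ccnd3, Cdk4, Cdk6, Cdkn1b and Rb1.

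**Figure D2:**
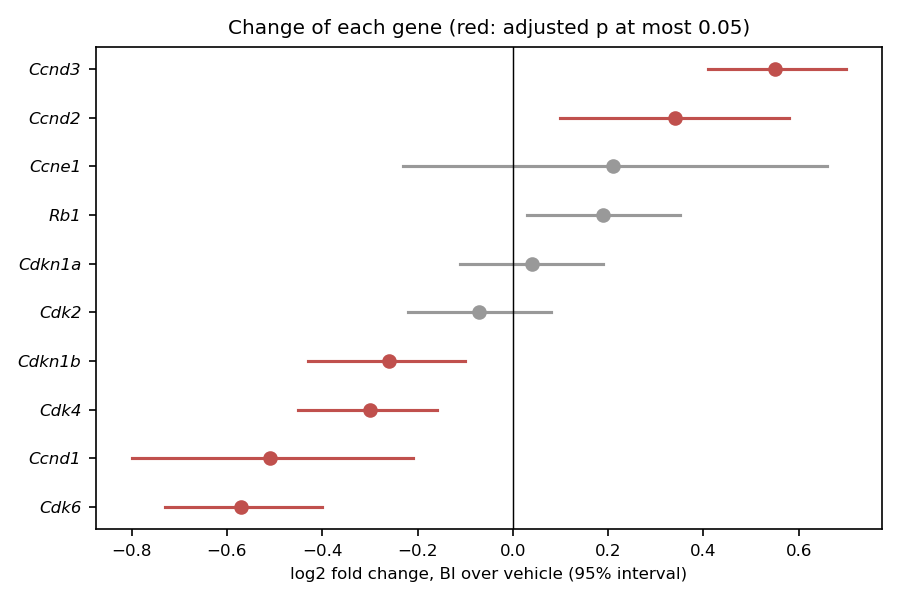
Log2 fold change of each gene, BI over vehicle (x axis), with its 95% interval from edgeR's quasi-likelihood fit over 3 and 6 tumors. Red marks an adjusted p of at most 0.05; changes run from -0.57 for Cdk6 to 0.55 for Ccnd3.

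Total counts ranged from 16931607 to 33850245 per tumor, and 3 counts, the limit taken for detection, correspond to between 0.0884 and 0.174 CPM, a limit that covers counting error only; every one of the 10 genes lay far above it. The tumors are mixtures, and fewer cells of a type and less RNA per cell cannot be told apart in them. Of 8 epithelial carcinoma markers, Krt8 and Krt18 carried nearly all of the signal, and Krt14 and Krt5 were under 1 CPM on average. Epcam averaged 2.13 ± 0.603 CPM under vehicle but 4.42 ± 2.96 CPM under BI (log2 fold change 1.06, edgeR adjusted p = 0.0987). Krt19 (0.15) and Cldn7 (0.11) also had positive log2 fold changes. Those of Cldn4 (-0.67), Krt14 (-0.85) and Krt5 (-0.21) were negative, and none of these genes passed the threshold. The summed level of these 8 markers was 946 to 1171 CPM in vehicle-treated and 742 to 944 CPM in BI-treated tumors, with 2 called lower (Krt8 and Krt18). Markers of other cells moved in both directions. The sum over 8 macrophage markers was 1643 to 2219 CPM with vehicle and 3246 to 4054 CPM with BI (7 of 8 rose), that over 7 T cell markers 43.2 to 44.4 and 74.0 to 104 CPM (7 of 7 rose), and that over 6 B cell markers 7.69 to 10.3 and 12.0 to 19.0 CPM (3 of 5 tested rose). The sum over 7 neutrophil markers was 517 to 739 CPM with vehicle and 209 to 362 CPM with BI, and 4 of 7 fell. The sum over 8 endothelial markers was 410 to 420 CPM with vehicle and 459 to 553 CPM with BI (3 of 8 rose). That over 8 fibroblast markers was 1907 to 3319 CPM with vehicle and 2533 to 5708 CPM with BI (1 of 8 rose). For 8 adipocyte markers it was 66.7 to 104 and 99.3 to 369 CPM (1 of 8 rose). The skeletal muscle sum was 14.0 to 29.8 and 10.2 to 21.8 CPM, and 1 of 7 markers tested fell. Among all genes tested, 14.6% rose and 14.1% fell. No marker found in the counts was at 0 in all tumors. The part of cell composition in the changes below was not tested.

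Levels of different genes were compared per length, as CPM per kilobase (kb) of the deposited gene length. In vehicle-treated tumors Ccnd1 was the most abundant of the 10 (393 ± 24.0 CPM per kb, SD, n = 3), higher than 99.1% of the genes tested over all tumors, followed by Cdk4 (258 ± 2.25). Cdkn1b (74.9 ± 8.92), Cdkn1a (35.1 ± 1.60), Ccnd3 (27.5 ± 1.42), Cdk6 (25.1 ± 1.54) and Cdk2 (22.6 ± 1.85) came next, and Rb1 (15.8 ± 0.262), Ccnd2 (9.44 ± 1.44) and Ccne1 (7.58 ± 1.74) were lowest. Cdk6 and Cdk2 overlapped between tumors in this order, as did Ccnd2 and Ccne1, while the other neighbours did not. In BI-treated tumors the level of Ccnd1 was 277 ± 49.5 CPM per kb (SD, n = 6) and overlapped that of Cdk4 (209 ± 15.7). Ccnd3 stood at 40.3 ± 2.74 CPM per kb there and overlapped Cdkn1a (36.0 ± 2.77), and Cdk6 at 16.9 ± 1.44 overlapped Rb1 (18.1 ± 1.61).

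Ccnd1 (Entrez gene 12443), which occupies positions 152115836 to 152125774 of chromosome 7 (mm9, minus strand), encodes cyclin D1. Its level was 1587, 1406 and 1480 CPM in the vehicle-treated tumors and ranged from 725 through a median of 1069 to 1312 CPM in the BI-treated tumors. Every BI-treated tumor was below every vehicle-treated tumor, with BI replicate 5 the lowest and BI replicate 8 the closest to the vehicle group. The log2 fold change was -0.51 (95% interval -0.80 to -0.21, standard error 0.136, edgeR adjusted p = 0.0165), and an exact permutation test, with 84 possible divisions, gave the smallest two-sided p it can give, 0.0238. Over the 9 fits that omit a single tumor its log2 fold change lay between -0.57 and -0.42, but the edgeR adjusted p was 0.0709 without vehicle replicate 1 and 0.0538 without vehicle replicate 3. The exons of Ccnd1 share 818 bases with LTO1 on the other strand, which had 19.5 ± 1.29 CPM with vehicle and 20.8 ± 1.86 CPM with BI, and the sources used here do not state whether strand was used in counting.

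Ccnd3 (Entrez gene 12445, chromosome 17 from 47642000 to 47736632, plus strand) encodes cyclin D3, a D-type cyclin needed for the expansion of lymphocyte precursors. Its level was 65.2, 62.3 and 58.8 CPM with vehicle and between 82.0 and 101 CPM (median 91.8) with BI. All 6 BI-treated tumors were above the vehicle group, and Ccnd3 rose by a log2 fold change of 0.55 (95% interval 0.41 to 0.70, standard error 0.0680, edgeR adjusted p = 0.000165, exact permutation p = 0.0238, two-sided). The overlapping gene on the other strand, Bysl, shares 353 exon bases and had 26.1 ± 1.84 CPM with vehicle and 28.8 ± 3.46 CPM with BI (log2 fold change 0.14, adjusted p = 0.319). The rise stood beside that of the T cell, B cell and macrophage markers given above, whose part in it was not tested.

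Ccnd2 (Entrez gene 12444, chromosome 6 from 127075797 to 127101066, minus strand) encodes cyclin D2. Its level was 60.5, 45.0 and 58.0 CPM with vehicle and ranged from 59.4 through a median of 67.2 to 81.8 CPM with BI. Here the groups overlapped, since BI replicate 5 lay below vehicle replicate 1 and the other 5 BI-treated tumors lay above all vehicle-treated tumors. Ccnd2 rose by a log2 fold change of 0.34 (95% interval 0.10 to 0.58, standard error 0.110, edgeR adjusted p = 0.0372, exact permutation p = 0.0476, two-sided). This rise depended on vehicle replicate 2, without which the log2 fold change was 0.22 (adjusted p = 0.165), and the edgeR adjusted p also missed the threshold without vehicle replicate 3 (0.0658), BI replicate 7 (0.0634) or BI replicate 9 (0.0616).

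The D-type cyclin messages thus had a different makeup in the treated tumors. Per length, Ccnd1 made up 91.4%, 91.3% and 91.5% of the 3 transcripts together in vehicle-treated tumors and 80.4% to 86.9% in BI-treated tumors. The share of Ccnd3 was 6.40 ± 0.350% with vehicle and 12.5 ± 1.68% with BI, and that of Ccnd2 2.19 ± 0.236% and 3.69 ± 0.517%. For each of the 3 cyclins the shares of the groups did not overlap. The sum of the 3, in CPM per kb, was 430 ± 26.1 with vehicle (406 to 457) and 329 ± 51.7 with BI (238 to 398), so that Ccnd1 remained the main D-type cyclin message in all 9 tumors. Without the correction for length, the share of Ccnd1 was 92.8% with vehicle and 86.5% with BI.

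**Figure D3:**
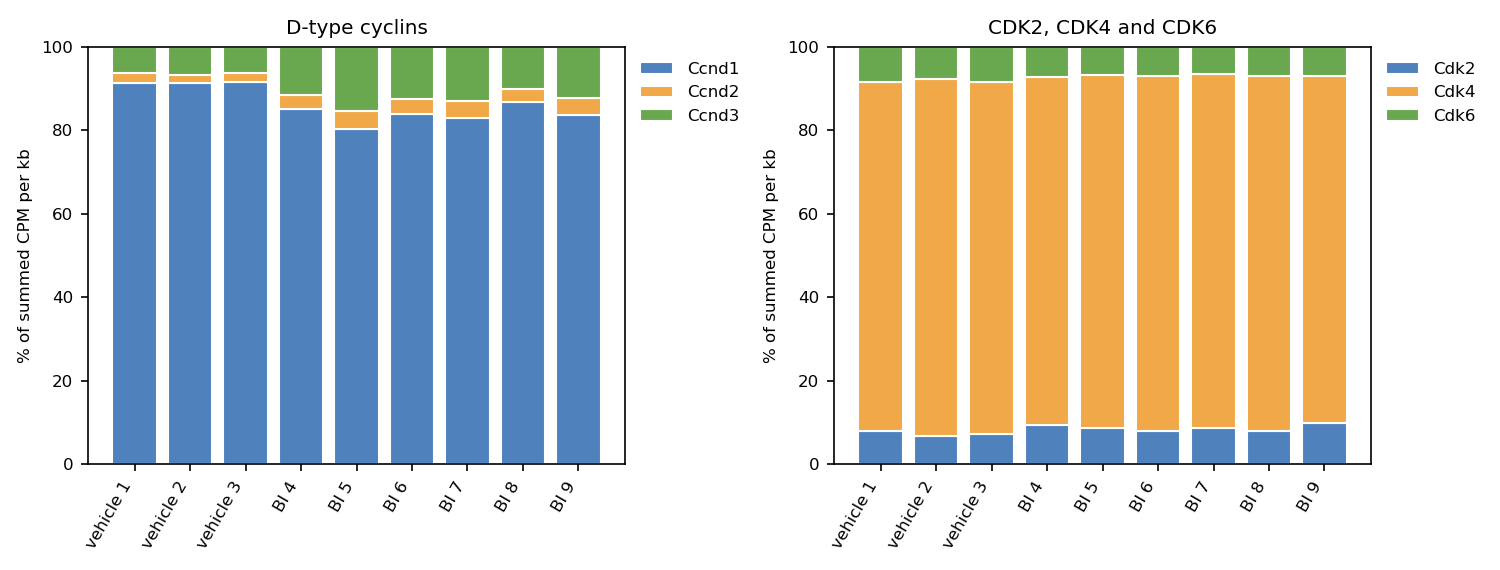
Share of each D-type cyclin (left) and of each of Cdk2, Cdk4 and Cdk6 (right) in the summed CPM per kb of its group (y axis, %), with a bar for each of the 9 tumors. Ccnd1 holds at least 91.3% in the vehicle-treated tumors and at most 86.9% in the BI-treated tumors, while Cdk4 holds 83.3% to 85.4% in all of them.

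The kinases differed in their promoters as well as in their levels, and the RefSeq promoters of Cdk4, Cdk6 and Cdk2 (250 bases before to 50 bases after the annotated start, build GRCm38.p6) are shown because the first pair fell and Cdk2 did not pass the test. Capitals mark the E-box CACGTG, which reads the same on both strands and is bound by MYC with MAX and by other factors. Cdk4 lies at chr10:127063285-127063584 (plus strand), Cdk6 at chr5:3343643-3343942 (plus strand) and Cdk2 at chr10:128705002-128705301 (minus strand).
Cdk4: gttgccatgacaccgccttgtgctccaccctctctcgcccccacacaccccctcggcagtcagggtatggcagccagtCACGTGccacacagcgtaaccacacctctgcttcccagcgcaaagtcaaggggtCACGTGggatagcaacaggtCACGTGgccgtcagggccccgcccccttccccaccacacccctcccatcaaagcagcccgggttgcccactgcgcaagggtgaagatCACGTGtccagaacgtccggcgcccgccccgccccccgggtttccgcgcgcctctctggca
Cdk6: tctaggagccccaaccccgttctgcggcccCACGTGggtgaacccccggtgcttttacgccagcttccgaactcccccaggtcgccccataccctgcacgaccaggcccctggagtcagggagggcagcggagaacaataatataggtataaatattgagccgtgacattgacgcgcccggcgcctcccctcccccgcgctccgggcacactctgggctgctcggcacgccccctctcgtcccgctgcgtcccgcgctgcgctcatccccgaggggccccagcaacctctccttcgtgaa
Cdk2: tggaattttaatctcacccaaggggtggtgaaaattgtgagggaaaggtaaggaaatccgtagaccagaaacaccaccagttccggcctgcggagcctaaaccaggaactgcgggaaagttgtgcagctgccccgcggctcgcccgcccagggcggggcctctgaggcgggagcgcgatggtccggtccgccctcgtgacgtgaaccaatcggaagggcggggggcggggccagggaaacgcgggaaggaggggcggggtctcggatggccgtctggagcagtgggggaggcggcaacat
The Cdk4 promoter holds 4 E-boxes, whose first bases lie at positions -172, -118, -98 and -11 from the start, and the Cdk6 promoter holds 1. Of 32851 promoters of this length, 7.15% have at least 1 E-box, 29 have 3 or more and 8, of 6 genes, have 4 or more. RefSeq promoters were given for 7 of the 10 genes (9 promoters), not for Ccnd1, Ccnd2 or Rb1, and the other 5 genes had no E-box. The motif TTTNNCGC, a core form of E2F sites, was found once each in Cdk2 and Cdk6 and in 5.17% of all promoters, searched on both strands. The AP-1 motif TGANTCA was found in none of the 9 and in 7.81% of all promoters. These matches describe the letters in the windows and show neither binding nor a cause of the changes.

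**Figure D4:**
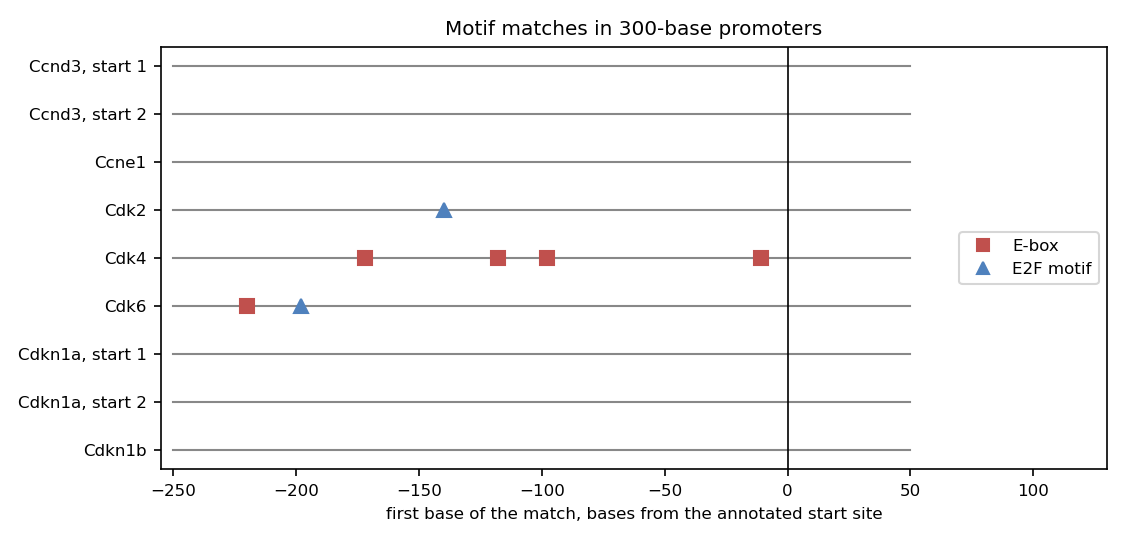
Positions of E-box (red squares) and E2F motif matches (blue triangles) in the 9 RefSeq promoters of 7 genes, as the distance of the first base of the match from the annotated start site (x axis, bases). Cdk4 has 4 E-boxes, Cdk6 has 1, and the other promoters have none.

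Cdk4 (Entrez gene 12567, chromosome 10 of mm9 from 126500590 to 126504976, plus strand) had 346, 346 and 351 CPM with vehicle, the tightest of the 10 vehicle groups, with a coefficient of variation of 0.871%. With BI it ranged from 260 through a median of 276 to 313 CPM, and BI replicate 8 was again the closest to the vehicle group, which it did not reach. The log2 fold change was -0.30 (95% interval -0.45 to -0.16, edgeR adjusted p = 0.00582). Tspan31, which shares 604 exon bases with Cdk4 on the other strand, had 119 ± 1.09 CPM with vehicle and 116 ± 12.7 CPM with BI (log2 fold change -0.04, adjusted p = 0.783).

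Cdk6 (Entrez gene 12571, chromosome 5 from 3343893 to 3523218, plus strand), the other kinase of the D-type cyclins, had the largest fall of the 10 genes. It was at 64.1, 57.6 and 64.2 CPM with vehicle and between 37.7 and 46.5 CPM (median 41.6) with BI, with no overlap. Its log2 fold change was -0.57 (95% interval -0.73 to -0.40, standard error 0.0759, edgeR adjusted p = 0.000283, exact permutation p = 0.0238, two-sided). Leaving out each tumor in turn kept it between -0.62 and -0.54, with an adjusted p of at most 0.00302. The exons of Cdk6 share 60 bases with Gm17590 on the other strand, which was not found in the counts. Within the CDKs, the share of Cdk6 per length was 7.75% to 8.44% with vehicle and 6.51% to 7.16% with BI, while Cdk4 held 84.4 ± 0.882% and 84.4 ± 0.818%.

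Cdk2 (Entrez gene 12566, chromosome 10 from 128134995 to 128142107, minus strand) and its partner Ccne1 (Entrez gene 12447, chromosome 7 from 38883003 to 38892553, minus strand) act after the D-type cyclins. Cdk2 was at 59.5, 50.5 and 55.2 CPM with vehicle and between 48.4 and 55.9 CPM (median 51.9) with BI, a log2 fold change of -0.07 whose 95% interval of -0.22 to 0.08 leaves room for a change in either direction (edgeR adjusted p = 0.477). Ccne1 was at 16.6, 10.9 and 16.9 CPM with vehicle and between 11.4 and 23.0 CPM (median 16.4) with BI, so the groups overlapped widely. Its log2 fold change of 0.21 had a 95% interval of -0.23 to 0.66 (adjusted p = 0.466), the widest of the 10, and was 0.04 without vehicle replicate 2.

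Of the CIP/KIP inhibitors, Cdkn1b (Entrez gene 12576, chromosome 6 from 134870419 to 134875531, plus strand), which encodes p27, was at 166, 205 and 170 CPM with vehicle and between 138 and 161 CPM (median 150) with BI. Every BI-treated tumor was below the vehicle group, and vehicle replicate 2 stood above the rest. Cdkn1b fell by a log2 fold change of -0.26 (95% interval -0.43 to -0.10, standard error 0.0763, edgeR adjusted p = 0.0226). Without vehicle replicate 2 the log2 fold change was -0.16 and the adjusted p of this test 0.129. Cdkn1a (Entrez gene 12575, chromosome 17 from 29227924 to 29237667, plus strand), which encodes the p53-responsive inhibitor p21, was at 73.0, 72.8 and 67.3 CPM with vehicle and between 65.4 and 79.6 CPM (median 73.0) with BI. Its log2 fold change of 0.04 had a 95% interval of -0.11 to 0.19 (adjusted p = 0.718), so a rise of more than 0.19 on the log2 scale lay outside the interval. Both inhibitors have their messages translated and their proteins degraded under separate control, which these counts do not show.

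Rb1 (Entrez gene 19645, chromosome 14 from 73583480 to 73725629, minus strand) was at 72.0, 74.4 and 73.1 CPM with vehicle and between 76.4 and 95.8 CPM (median 82.1) with BI. All 6 BI-treated tumors were above the vehicle group, but the log2 fold change of 0.19 (95% interval 0.03 to 0.35) had an adjusted p of 0.0670 in edgeR. DESeq2 gave 0.20 with an adjusted p of 0.0477, and edgeR gave 0.0486 without BI replicate 8 and 0.0463 without BI replicate 9. The exact permutation test gave p = 0.0238, two-sided and not adjusted, for all 3 vehicle-treated against all 6 BI-treated tumors. Genes on the other strand share exon bases with Rb1, 408 in the case of Lpar6 (47.0 ± 1.75 CPM with vehicle, 47.1 ± 7.10 with BI) and 488 in that of Rcbtb2 (95.3 ± 4.58 and 91.9 ± 9.57 CPM).

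**Figure D5:**
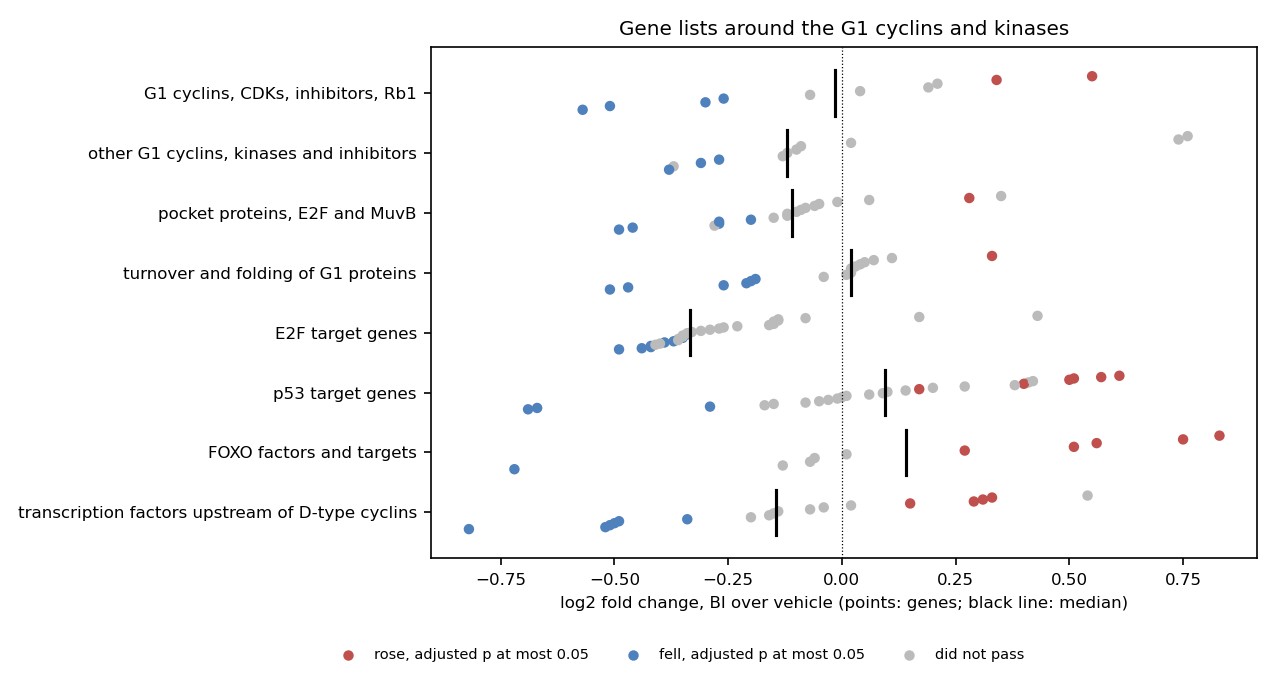
Log2 fold changes, BI over vehicle (x axis), of the 10 genes and of 7 lists of genes around them; points are genes, colored by edgeR's adjusted p, and black lines are list medians. The median of the E2F target genes, -0.34, is the lowest of the 8.

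Transcription factors known to drive D-type cyclin genes or to act early after growth factors moved in both directions: of 18 tested, 6 fell (33.3%, against 14.1% of all genes tested) and 4 rose (22.2%, against 14.6%), and the median log2 fold change was -0.14. Fosl1, which encodes the AP-1 subunit FRA1, fell from 72.6 ± 5.04 to 41.2 ± 7.80 CPM (log2 fold change -0.82, edgeR adjusted p = 0.000763). Ets1 fell from 203 ± 18.4 to 142 ± 6.26 CPM (-0.52, adjusted p = 0.000166). Myc, whose protein binds E-boxes, fell from 158 ± 2.53 to 111 ± 14.7 CPM (-0.51, adjusted p = 0.00229). In each of these 3 genes all BI-treated tumors were below all vehicle-treated tumors. Stat5b (log2 fold change 0.29, adjusted p = 0.00442), Stat5a (0.33, 0.00814) and Tcf7l2 (0.31, 0.0134) rose, with all BI-treated tumors above; STAT5 carries cytokine signals to Ccnd2 and other genes in blood cells. Without vehicle replicate 3 only 1 of these factors rose, and without vehicle replicate 2 there were 2.

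The remaining cyclins, kinases and inhibitors of G1 held 3 falls (27.3%, against 14.1% of all genes tested) and 0 rises (against 14.6%) among 11 genes in edgeR, with 1 fall without vehicle replicate 3. DESeq2 and limma-voom also gave 0 rises, though the shares of all genes that they called are not given here. In edgeR 1 gene, Cdkn1c, was higher at an unadjusted p of at most 0.05. Its level was low, 0.939 ± 0.465 CPM with vehicle and 1.58 ± 0.220 with BI (log2 fold change 0.74, edgeR adjusted p = 0.0875). Of the 11 genes it alone met the cutoffs of the study. Without vehicle replicate 2, 1 gene rose. Mnat1 (log2 fold change -0.38, edgeR adjusted p = 0.00134) and Cdk7 (-0.27, 0.0259) fell; their products, with cyclin H, form the kinase that activates other CDKs. Cdc25a, a phosphatase that activates CDK2, fell by a log2 fold change of -0.31 (adjusted p = 0.0464). Of the INK4 inhibitors, which bind CDK4 and CDK6 alone, Cdkn2c was at 59.4 ± 1.36 CPM with vehicle and 54.2 ± 2.74 with BI (adjusted p = 0.105). Cdkn2a was at 0.442 ± 0.213 CPM with vehicle and 0.734 ± 0.260 with BI (log2 fold change 0.76, adjusted p = 0.181), Cdkn2b at 1.35 ± 0.0976 and 1.23 ± 0.199 CPM (-0.12, adjusted p = 0.711), and Cdkn2d at 3.27 ± 0.444 and 3.06 ± 0.787 CPM (-0.09, adjusted p = 0.800).

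Among the pocket proteins related to RB, their E2F partners and the MuvB complex, 5 of 18 genes fell (27.8%, against 14.1% of all genes tested) and 1 rose (5.56%, against 14.6%). Rbl2, which encodes the pocket protein p130 of resting cells, rose from 51.7 ± 1.51 to 62.7 ± 5.67 CPM (log2 fold change 0.28, edgeR adjusted p = 0.0204). Tfdp2, a partner of E2F proteins (-0.49, adjusted p = 0.00283), Dyrk1a, a kinase that promotes MuvB assembly with p130 (-0.20, 0.0191), and E2f3, an activating E2F (-0.27, 0.0248), fell. The number of falls was 2 without vehicle replicate 1 and 1 without vehicle replicate 3. Rbl2 did not pass without any one of the vehicle replicates.

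Of 17 genes for the turnover and folding of G1 proteins, 6 fell (35.3%, against 14.1% of all genes tested) and 1 rose (5.88%, against 14.6%). The list as a whole was not shifted down, since its median log2 fold change was 0.02 and 7 of the 17 were below 0. Skp2, the subunit that leads p27 to degradation, fell from 63.7 ± 8.16 to 46.0 ± 4.05 CPM (log2 fold change -0.47, edgeR adjusted p = 0.00293), at the same time as the message of p27 itself. Ddb1 (-0.26, adjusted p = 0.00986) and Cul4b (-0.20, 0.0209), parts of CUL4 ubiquitin ligases, also fell, and Fbxo4, which takes part in the degradation of cyclin D1, rose (0.33, 0.00479). The falls numbered 1 without vehicle replicate 1 and 2 without vehicle replicate 3.

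Downstream, 8 of 30 E2F target genes fell and 0 rose in edgeR, where 14.6% of all genes tested rose. In this list 28 of 30 had a log2 fold change below 0, as did 7050 of all 13966 genes tested, and the median was -0.34. Cdt1, a loader of the replicative helicase, fell from 51.0 ± 6.58 to 37.5 ± 2.91 CPM (log2 fold change -0.44, adjusted p = 0.00319), Uhrf1, which maintains DNA methylation at replication, from 122 ± 15.3 to 91.4 ± 10.2 CPM (-0.42, 0.00968), and Mcm7, a helicase subunit, from 128 ± 12.3 to 99.4 ± 11.0 CPM (-0.37, 0.0122). DESeq2 called 12 lower and 1 higher and limma-voom 9 and 0, but the shares of all genes that they called are not given here. In edgeR 1 gene, Mybl2, was higher at an unadjusted p of at most 0.05 (29.4 ± 3.30 CPM with vehicle, 39.7 ± 9.42 with BI). The share of falls, 26.7%, stands beside 14.1% over all genes tested. In 2 of the 30 all BI-treated tumors lay below all vehicle-treated tumors, which was the case for 14.0% of all genes tested, so this measure ran the other way. The count of falls moved both ways with the tumors included, from 1 without vehicle replicate 1, 2 without vehicle replicate 3 and 4 without BI replicate 6 or BI replicate 7 to 11 without BI replicate 8 or BI replicate 9 and 12 without vehicle replicate 2.

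Genes that respond to p53 were listed because Cdkn1a is one of them. Of 26, 6 rose (23.1%, against 14.6% of all genes tested) and 3 fell (11.5%, near the 14.1% of all genes), and the median log2 fold change was 0.10. Btg2, an inhibitor of proliferation (log2 fold change 0.57, edgeR adjusted p = 0.000282), Sesn1 (0.61, 0.00763) and Dcxr (0.51, 0.00809) rose, while Tnfrsf10b, a death receptor gene (-0.69, 4.36e-05), Polk (-0.29, 0.00230) and Ddit4 (-0.67, 0.00474) fell. Without vehicle replicate 1 or BI replicate 7 the rises numbered 3. Mdm2, a direct target of p53, had 113 ± 0.867 CPM with vehicle and 100 ± 6.84 CPM with BI (adjusted p = 0.0605). Of 10 FOXO factors and their targets, a group that can include Cdkn1b, 5 rose (50.0%, against 14.6% of all genes tested) and 1 of the 10 fell (against 14.1% of all genes). Foxo1 (0.75, adjusted p = 0.00976), Sesn3 (0.83, 0.00295) and Txnip (0.56, 0.00211) rose, whereas Ccng2, an atypical cyclin gene, fell from 158 ± 2.91 to 95.7 ± 6.28 CPM (-0.72, adjusted p = 1.86e-05). Without vehicle replicate 1 or vehicle replicate 3, 3 of the FOXO genes rose.

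Across the 9 tumors, the genes whose log2 CPM followed Ccnd1 most closely were Kars (Pearson's r = 0.992), Fhl2 (0.983) and Ubqln4 (0.976). Those closest to Ccnd2 were Sema4d (0.963), Nans (0.963) and Isoc2a (0.962), and those closest to Cdkn1a were Smg9 (0.930), Zfyve19 (0.898) and Mrps18c (0.886). These are the highest values among 13966 genes over 9 tumors that share the treatment contrast, and they serve only as a description. Of the genes close to Ccnd1, Fhl2 fell from a mean of 51.9 to 27.6 CPM (log2 fold change -0.91, edgeR adjusted p = 0.00661), while Kars had a log2 fold change of -0.18 (adjusted p = 0.0587) and Ubqln4 one of -0.11 (0.137).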

How the data were processed

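RNA sequencing of 9 tumors of 4T1 cells (3 vehicle, replicates 1 to 3, and 6 BI, replicates 4 to 9, numbered as in the labels) was re-analysed. The paper states that it analysed only tumors whose RNA was of sufficient quality. The authors aligned paired reads to mm9 with STAR, kept unique hits, and used QuasR to count read starts within exons of RefSeq genes. Their deposited table holds raw counts of 18755 genes beside gene lengths in bases, and strand use in counting is not given in the sources used here. RefSeq gave symbols for 18700 genes, and GENCODE M1 gave mm9 positions. edgeR 4.0.16 was run in R 4.3.3 with TMM (factors 0.984 to 1.02), filterByExpr (minimum count 10, minimum total 15), and the quasi-likelihood F test without covariates, with Benjamini-Hochberg adjustment over all 13966 genes tested. The fit was tested on simulated data. It called 63 of 100 genes with a simulated log2 change of 0.5 in size and 83 of 100 with 1.0. Of the genes simulated without a change, 9 were called. Permutation tests were exact over 84 divisions, with a smallest two-sided p of 0.0238. The alternatives used RLE or library size, no filter or 1 CPM in 3 tumors, DESeq2 1.42.0, limma-voom (limma 3.58.1), the study's cutoffs, and leaving out each tumor. Named genes are the 10, the 3 smallest p per direction past the threshold in each of the 7 lists, 3 correlates each of Ccnd1, Ccnd2 and Cdkn1a, and genes with overlapping exons; values of Mdm2, Mybl2, Cdkn1c, Cdkn2a, Cdkn2b, Cdkn2c and Cdkn2d were added after they were seen. The members and lists were chosen with earlier results of these data known. Of 210 list entries, 2 had no gene in the counts.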

Additional observations from a re-analysis of the deposited data

Results flagged for a closer look

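Among 54 named genes, the 6 BI-treated tumors of 1 gene contained a tumor far from the others. Rbl2 was at 52.0 CPM in BI replicate 8, against 62.3 to 68.4 CPM in the other 5, and the gap was 0.629 of the range of the 6 tumors. Chance sets apart about 1 in 20 such groups.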

How the results depend on the processing

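The log2 fold changes of the 10 genes kept their direction under RLE, library size, no filter, the filter of 1 CPM in 3 tumors, DESeq2 and limma-voom. Their calls held under these settings except for Rb1, which passed with DESeq2 (0.20). Under the study's cutoffs 0 genes rose and 0 fell, since the values of Ccnd1 (-0.51), Ccnd2 (0.34), Ccnd3 (0.55), Cdk4 (-0.30), Cdk6 (-0.57) and Cdkn1b (-0.26) lie inside its fold limit. Of the 130 other listed genes, 4 rose and 4 fell there, and 13.2% of all genes tested met these cutoffs. At the adjusted p threshold 17 of the 130 rose (13.1%, against 14.6% of all genes tested). There 32 fell (24.6%, against 14.1%). With each tumor left out, the ranges were -0.57 to -0.42 for Ccnd1, 0.22 to 0.42 for Ccnd2, 0.51 to 0.59 for Ccnd3, -0.33 to -0.28 for Cdk4, -0.62 to -0.54 for Cdk6, -0.32 to -0.16 for Cdkn1b and 0.15 to 0.22 for Rb1. The value of Cdkn1a, 0.07 at most, changed sign to -0.00 without vehicle replicate 3, and Ccne1 and Cdk2 ranged from 0.04 to 0.32 and from -0.13 to -0.01. The number of the 10 genes that rose was 1 to 3 and that of genes that fell 3 to 4. Without the correction for length, Ccnd1, Ccnd2 and Ccnd3 made up 92.8%, 3.38% and 3.87% of the D-type cyclins with vehicle and 86.5%, 5.79% and 7.66% with BI, and Cdk2, Cdk4 and Cdk6 made up 11.8%, 74.8% and 13.3% of the CDKs with vehicle and 14.0%, 74.9% and 11.1% with BI. No paired analysis was possible because the labels give no pairing of tumors between the groups. Depth did not limit the 10 genes, but 3 vehicle-treated tumors leave few degrees of freedom, and of the 7 losses of a call among the 10 genes 5 came with a vehicle-treated tumor left out.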
